A study of Mus musculus with 6 samples.

Results

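The 10 genes described here encode the NF-kB transcription factor subunits (Nfkb1, Nfkb2, Rel, Rela, Relb) and their regulators: the cytosolic inhibitors (Nfkbia, Nfkbib, Nfkbie), a nuclear IkB protein (Nfkbiz) and a ubiquitin editor that ends signalling (Tnfaip3). They were chosen by gene name, and all 10 have a row among the 27458 genes of the deposited table. RNA was sequenced in 2 groups of primary macrophages grown from mouse bone marrow with M-CSF, the growth factor of this lineage: 3 libraries from mice without RKIP (KO, labelled RKIP KO) and 3 from wild-type mice (WT). RKIP, or Raf kinase inhibitor protein, is encoded by Pebp1. The study asked how RKIP acts on macrophage differentiation. The sources used here do not give mouse strain, age or the way the knockout was made. They also do not say that each library had its own animal or culture, so the p-values speak of library-to-library spread, which may be technical.

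NF-kB is a family of dimeric transcription factors that drive inflammatory and survival genes in macrophages. In resting cells, IkB proteins hold the dimers in the cytosol. Signals from Toll-like receptors, tumour necrosis factor receptors or RANK activate the IKK kinase complex, which marks IkB for destruction and frees the dimers (canonical route). A slower, non-canonical route runs through the kinase NIK and the processing of the Nfkb2 product, and in osteoclast precursors both routes act downstream of RANK. Several family members are themselves NF-kB targets, so their RNA levels follow NF-kB activity in many cells. In work on cell lines, RKIP was found to bind kinases of the IKK route and to dampen NF-kB activation.

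Estimated counts totalled 63607276 to 70059042 in KO libraries and 53188659 to 55255365 in WT libraries, and each of the 10 genes had 636 to 10051 counts in every library. Pebp1 had a count of 0 in all KO libraries and 33.2 to 39.2 FPKM (fragments scaled by transcript length and library total) in WT libraries. All 8 macrophage markers, Adgre1, Csf1r and Cd68 among them, exceeded a mean of 1 FPKM, and their summed level was 2514 to 2619 FPKM in KO and 2202 to 2217 FPKM in WT. The 5 stromal markers, led by Col1a1 and Col1a2, summed to 819 to 924 FPKM in KO and 787 to 881 FPKM in WT, and 1 of them, Lepr, stayed below 1 FPKM. The 12 neutrophil markers summed to 7.63 to 8.16 FPKM in KO and 77.8 to 164 FPKM in WT. Of the 5 monocyte markers, 3 exceeded 1 FPKM, and the list summed to 22.4 to 24.4 FPKM in KO and 30.7 to 32.5 FPKM in WT. The markers of a list did not all move with its sum: Ccr2 stood at 6.15 to 7.45 FPKM in KO and 3.73 to 4.34 FPKM in WT, and the macrophage markers Cd68 and Fcgr1 were lower in each KO library than in each WT library. Among the stromal markers, Cxcl12 stood at 131 to 141 FPKM in KO and 85.4 to 90.0 FPKM in WT. Lepr was also higher in each KO library than in each WT library, while Col1a1, Col1a2 and Pdgfra overlapped between genotypes. Marker sums for dendritic, B, T and NK, mast and basophil, and erythroid cells were at most 2.43 FPKM in every library. In bulk RNA, fewer cells of a type and less RNA per cell cannot be told apart, and the part that the mix of cells has in the values below was not tested.

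The 3 promoters are shown because their genes were the ones that passed the test between genotypes. Each window runs from 250 bases before to 50 bases after the transcript start (RefSeq, GRCm38.p6, gene strand, 5′ to 3′). Capitals mark matches to the kappaB consensus element, the DNA site bound by NF-kB dimers, on either strand.
Rel, chr11:23770920-23771219, minus strand: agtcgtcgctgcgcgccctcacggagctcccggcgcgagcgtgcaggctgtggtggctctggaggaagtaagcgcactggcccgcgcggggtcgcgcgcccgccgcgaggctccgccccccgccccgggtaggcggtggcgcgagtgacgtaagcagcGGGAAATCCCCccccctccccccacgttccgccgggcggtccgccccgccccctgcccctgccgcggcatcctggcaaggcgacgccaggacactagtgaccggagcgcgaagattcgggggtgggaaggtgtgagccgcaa
Nfkbia, chr12:55492598-55492897, minus strand: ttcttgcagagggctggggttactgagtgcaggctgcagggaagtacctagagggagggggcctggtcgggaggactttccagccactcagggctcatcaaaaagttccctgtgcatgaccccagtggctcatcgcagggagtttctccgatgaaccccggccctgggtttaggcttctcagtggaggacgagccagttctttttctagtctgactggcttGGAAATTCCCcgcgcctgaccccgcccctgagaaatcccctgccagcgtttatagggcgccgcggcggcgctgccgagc
Nfkbib, chr7:28766595-28766894, minus strand: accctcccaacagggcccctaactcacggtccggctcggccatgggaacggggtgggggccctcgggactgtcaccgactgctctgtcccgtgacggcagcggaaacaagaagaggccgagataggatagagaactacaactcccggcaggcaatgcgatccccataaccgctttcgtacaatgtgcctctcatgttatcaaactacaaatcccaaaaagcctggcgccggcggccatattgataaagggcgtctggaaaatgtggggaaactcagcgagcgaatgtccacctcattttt

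Rel lies at chr11:23736847-23770970, Nfkbia at chr12:55489410-55492647 and Nfkbib at chr7:28758251-28766640, all on the minus strand (deposited coordinates, identical to GENCODE M21 on GRCm38 for Rel and Nfkbia, while Nfkbib has another start or end there). The Rel window holds 3 overlapping matches between 92 and 82 bases before the start, which include the same bases counted on both strands. The Nfkbia window holds 1 match, between 29 and 20 bases before the start. The Nfkbib window holds no match, which says only that these letters are not in these 300 bases. RefSeq windows were at hand for 7 of the 10 genes (10 windows), and Nfkb1, Relb and Nfkbiz had none. Of the 7 genes, 5 (Rel, Nfkbia, Nfkbie, Nfkb2 and Tnfaip3) had at least 1 match. By window, 7 of the 10 held one, against 4.51% of all 32851 windows, and the 7 include 3 windows of Nfkb2, 2 of which overlap. On the strand opposite to the printed one, the match read GGGAATTTCC at Nfkbia, the matches at Rel read GGGATTTCCC and GGGGATTTCC, and GGGGATTTCC also stood 12 to 3 bases before the start of Tnfaip3. A match is a sequence description and was not tied to binding in these cells.

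In macrophages without RKIP, compared with wild-type ones, Rel rose slightly, Nfkbia and Nfkbib fell slightly, and the other 7 genes did not pass the test. The largest of the 3 changes was 1.202-fold, and none of them was called once transcript length and GC content were taken into account. The 3 of 10 called genes (30.0%) compare with 39.7% of all 11636 tested genes (edgeR quasi-likelihood test, adjusted p under 0.05), a share near that of genes in general, and the 1 higher and 2 lower genes with 20.3% and 19.4% (23.8% and 14.1% by limma on FPKM). The median absolute log2 fold change was 0.05 over the 10 genes and 0.17 over all tested genes, and the signed medians were 0.01 and -0.01. All 10 passed the filter on low values, a mean of at least 1 FPKM over the 6 libraries.

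**Figure D1:**
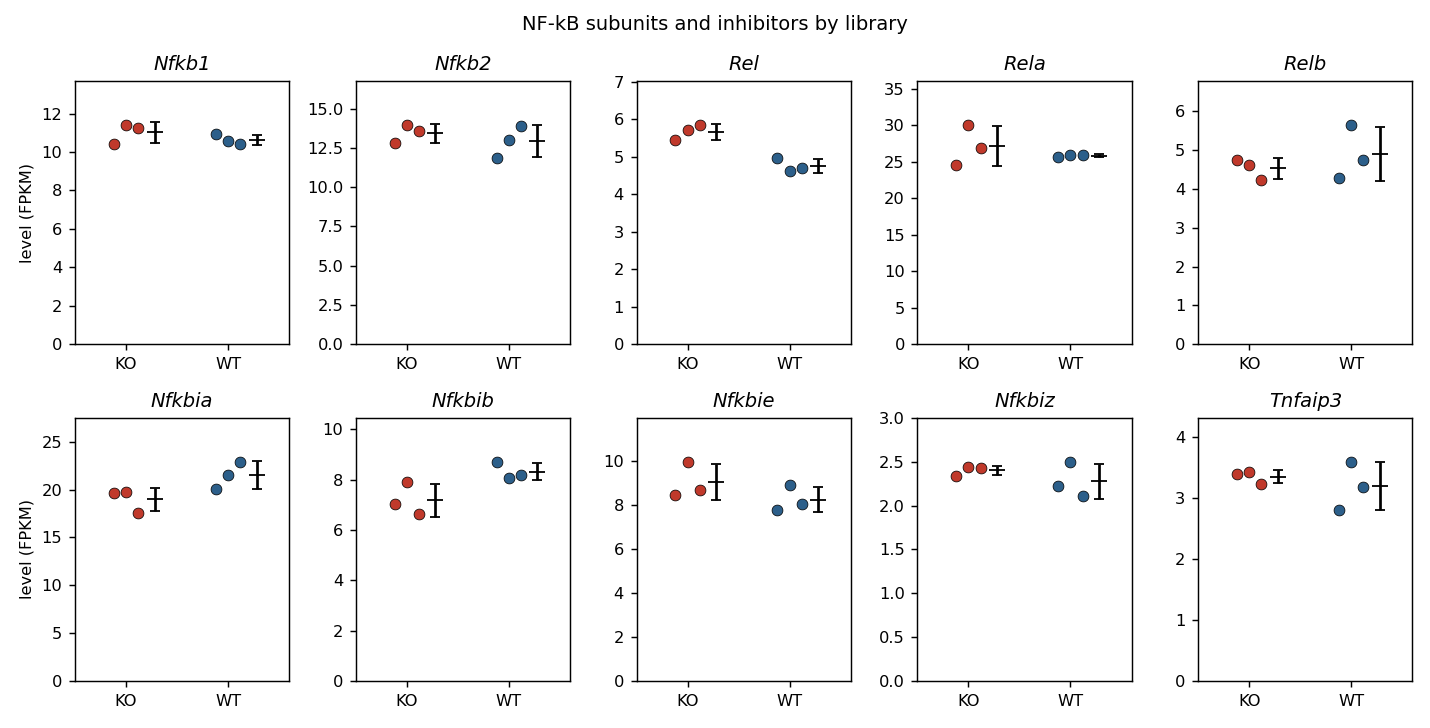
Level of each of the 10 genes in FPKM (y axis, each panel from 0) in KO (red) and WT (blue) libraries; points are libraries and bars are mean ± SD (n = 3). Every KO point of Rel lay above the WT points, Nfkbia and Nfkbib lay lower, and the other 7 panels overlap.

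Among the subunits, Rela was the most abundant. Rela encodes the main activating subunit of the canonical route, and it stood at 24.6, 30.1 and 26.8 FPKM in KO libraries, against 25.6, 25.9 and 25.99 FPKM in WT libraries. The groups overlapped, with KO library 2 the highest of the 6 and KO library 1 the lowest. The log2 fold change (KO over WT) was 0.02, with an approximate 95% interval from -0.11 to 0.15 (edgeR, adjusted p = 0.831). Rela made up 43.9 ± 1.66% of the summed FPKM of the 5 subunits in KO and 43.7 ± 0.581% in WT (SD, n = 3 each).

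Nfkb1 and Nfkb2 encode long precursors that are cut to DNA-binding subunits and that hold other subunits back while uncut. Nfkb1 stood at 10.4, 11.4 and 11.3 FPKM in KO libraries, against 10.9, 10.6 and 10.4 FPKM in WT libraries. Nfkb2, whose cutting is the switch of the non-canonical route, stood at 12.8, 13.96 and 13.6 FPKM in KO libraries, against 11.9, 13.03 and 13.9 FPKM in WT libraries. Both genes overlapped between genotypes, and the log2 fold change was -0.0043 for Nfkb1 (interval -0.10 to 0.09, edgeR, adjusted p = 0.949) and -0.0013 for Nfkb2 (interval -0.13 to 0.13, adjusted p = 0.989). Exons of Nfkb2 overlap those of AC114539.1 and Psd on the opposite strand, and whether strand was used in the counting was not given, so its level may hold reads of both.

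Relb encodes the partner of the processed Nfkb2 product. It stood at 4.76, 4.62 and 4.22 FPKM in KO libraries, against 4.29, 5.65 and 4.76 FPKM in WT libraries. WT library 2 was the highest and KO library 3 the lowest, the groups overlapped, and the spread within WT (coefficient of variation 14.1%) was the widest of the 10 genes in either group. The log2 fold change was -0.16 (interval -0.39 to 0.06, edgeR, adjusted p = 0.220).

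Rel, which encodes c-Rel, a subunit of lymphoid and myeloid cells, was the member that rose. It stood at 5.44, 5.72 and 5.85 FPKM in KO libraries, against 4.98, 4.63 and 4.70 FPKM in WT libraries. Every KO library lay above every WT library. Over all tested genes, 51.4% had groups that did not overlap, in either direction. The rise was 1.15-fold (log2 fold change 0.20 ± 0.06 SE, interval 0.07 to 0.32, edgeR, adjusted p = 0.0155), and 42.7% of tested genes changed by more. The call ended without KO library 3 (adjusted p = 0.0534) and without WT library 2 (adjusted p = 0.0603).

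Of the 3 cytosolic inhibitors, Nfkbia and Nfkbib were called lower, as were 19.4% of all tested genes. Neither was called once transcript length and GC content were taken into account. Nfkbia encodes IkB alpha, the inhibitor that is destroyed and made anew within each round of NF-kB activation. It stood at 19.7, 19.7 and 17.6 FPKM in KO libraries, against 20.1, 21.5 and 22.9 FPKM in WT libraries. All KO libraries lay below all WT libraries, and the KO level was 0.851-fold that of WT (log2 fold change -0.23 ± 0.07 SE, interval -0.40 to -0.07, edgeR, adjusted p = 0.0254). The neutrophil marker sum was also lower in KO than in WT, and the part of neutrophil RNA in the Nfkbia difference was not tested. The call ended without KO library 3 (adjusted p = 0.0952), without WT library 2 (0.0575) and without WT library 3 (0.105).

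Nfkbib encodes IkB beta, a slower-turning inhibitor. It stood at 7.03, 7.90 and 6.63 FPKM in KO libraries, against 8.72, 8.07 and 8.18 FPKM in WT libraries. The groups did not overlap, with KO library 2 close to WT library 2, and the KO level was 0.832-fold that of WT (log2 fold change -0.27 ± 0.08 SE, interval -0.45 to -0.08, edgeR, adjusted p = 0.0247). This was the largest change of the 10 genes, and 30.0% of tested genes changed by more. Its call ended in 4 of the 6 fits that leave out 1 library, without KO library 1 or 3 or WT library 1 or 3 (adjusted p from 0.0570 to 0.0883). An exon of Ccer2 on the opposite strand overlaps Nfkbib in the GENCODE M21 annotation.

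Nfkbie encodes IkB epsilon, the third cytosolic inhibitor. It stood at 8.46, 9.97 and 8.66 FPKM in KO libraries, against 7.79, 8.89 and 8.03 FPKM in WT libraries. The means leaned the other way from those of Nfkbia and Nfkbib, but the groups overlapped and the gene did not pass (log2 fold change 0.08, interval -0.09 to 0.25, edgeR, adjusted p = 0.461).

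The nuclear regulator and the ubiquitin editor were the least abundant members. Nfkbiz encodes IkB zeta, an inducible nuclear protein that helps NF-kB switch on secondary response genes. It stood at 2.34, 2.44 and 2.43 FPKM in KO libraries, against 2.22, 2.50 and 2.11 FPKM in WT libraries (log2 fold change 0.02, interval -0.18 to 0.23, edgeR, adjusted p = 0.869). Tnfaip3 encodes a ubiquitin-editing enzyme that ends signalling upstream of IKK and is a classical NF-kB target. It stood at 3.39, 3.42 and 3.22 FPKM in KO libraries, against 2.80, 3.59 and 3.18 FPKM in WT libraries (log2 fold change 0.01, interval -0.18 to 0.21, edgeR, adjusted p = 0.913). For both genes the WT libraries spanned the whole range of the KO libraries. Over the 7 genes without a call, the approximate 95% intervals reached down to -0.39 and up to 0.25 on the log2 scale.

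The order of levels was alike in both genotypes. In KO libraries it ran Rela, Nfkbia, Nfkb2, Nfkb1, Nfkbie, Nfkbib, Rel, Relb, Tnfaip3 and Nfkbiz, and the libraries of each neighbouring pair did not overlap. In WT libraries Nfkbib and Nfkbie overlapped at means of 8.32 and 8.24 FPKM, and so did Relb and Rel at 4.90 and 4.77 FPKM, with the other neighbours apart. The 3 cytosolic inhibitors summed to 35.1, 37.6 and 32.9 FPKM in KO libraries, against 36.6, 38.5 and 39.1 FPKM in WT libraries. The 5 subunits summed to 58.0, 65.8 and 61.7 FPKM in KO libraries, against 57.7, 59.8 and 59.8 FPKM in WT libraries. Each sum overlapped between genotypes. The ratio of the inhibitor sum to the subunit sum was 0.606, 0.571 and 0.533 in KO libraries, against 0.634, 0.644 and 0.655 in WT libraries, with no overlap. The sums include the called genes Nfkbia, Nfkbib and Rel, and the ratio was not tested. Of single tested genes, 51.4% also had groups that did not overlap, in either direction. The longest annotated transcripts were 1578 to 3006 bp for the inhibitors and 2716 to 7466 bp for the subunits. Fold changes varied with transcript length across all tested genes, as given below. The sums were not corrected for this trend, and its part in the ratio was not tested. The ratio of Nfkb2 to Nfkb1, whose products serve the non-canonical and the canonical route, was 1.22 ± 0.0136 in KO and 1.22 ± 0.125 in WT (SD, n = 3 each).

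The called genes stood at the ends of the length range. Rel has the longest annotated transcript of the 10 (7466 bp), and Nfkbia (1578 bp) and Nfkbib (2061 bp) have the shortest. Across all tested genes, long transcripts were higher and short ones lower in KO. When the genes were split into 10 equal groups by length, in the group that holds Rel the median log2 fold change was 0.20 and 58.3% were called higher. In the group with Nfkbia the median was -0.17 and 36.6% were called lower, and in the group with Nfkbib these were -0.11 and 29.2%. With each library's trend on length and GC content removed, Rel turned to -0.06 (interval -0.18 to 0.06, adjusted p = 0.466), Nfkbia shrank to -0.07 (interval -0.23 to 0.08, adjusted p = 0.466) and Nfkbib to -0.16 (interval -0.32 to -0.0028, adjusted p = 0.115; edgeR quasi-likelihood test). In this fit 0 of 10 genes were called, against 30.4% of all tested genes, and 1 of the 10, Nfkbib, had an unadjusted p under 0.05. DESeq2 without the correction called the same 3 genes.

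**Figure D2:**
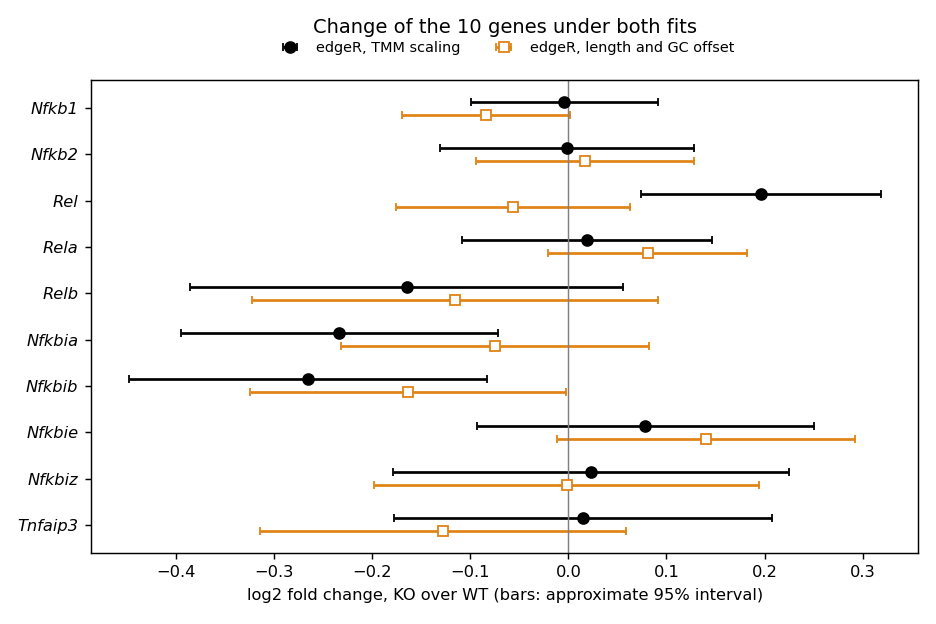
Log2 fold change of the 10 genes, KO over WT, with approximate 95% intervals, in the edgeR fit with TMM scaling (black circles) and with the length and GC offset (orange squares). Rel, Nfkbia and Nfkbib are the only black intervals clear of 0. Rel changes side with the offset, and no gene passes the threshold with it.

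**Figure D3:**
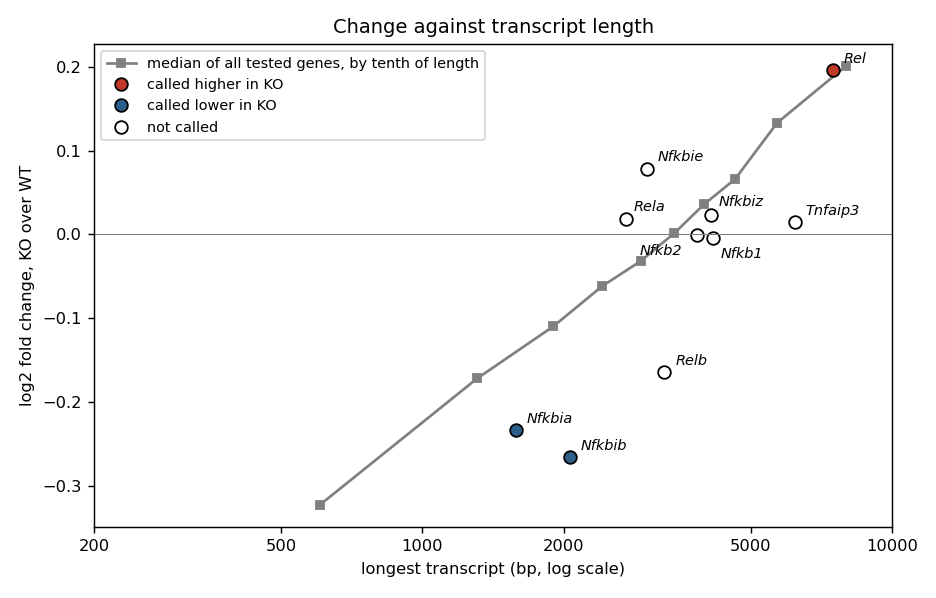
Log2 fold change, KO over WT, against the longest annotated transcript (log scale) for the 10 genes (circles, red called higher, blue called lower, white not called), with the median of all tested genes in each of 10 length groups (grey squares). The line climbs from -0.32 to 0.20; Rel lies beside its upper end, and Nfkbia and Nfkbib lie below its lower part.

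Upstream of NF-kB, of 24 tested receptor and adaptor genes, 5 rose and 3 fell, against 20.3% higher and 19.4% lower of all tested genes, so the rises were near that share and the falls below it, and the median log2 fold change was 0.01. Tnfrsf11a, which encodes RANK, rose to 10.95 ± 0.128 FPKM in KO, against 8.30 ± 0.0919 FPKM in WT (SD, n = 3 each; log2 fold change 0.35, edgeR, adjusted p = 0.000109). Tlr4, the receptor for bacterial lipopolysaccharide, rose 1.35-fold, its adaptor gene Ticam2 1.19-fold and Il1rap, the accessory chain of the interleukin 1 receptor, 1.39-fold (adjusted p = 0.000219, 0.00401 and 0.00163). The rises of these 4 genes were also called with the length and GC offset. The other rise, Ripk1 (1.14-fold, edgeR, adjusted p = 0.00466), was not (log2 fold change 0.0061, adjusted p = 0.922). Cd14, Tlr2 and Cd40 made up the 3 falls. With the offset Tlr2 was still called lower (log2 fold change -0.10, adjusted p = 0.0481), while Cd14 (-0.05, adjusted p = 0.454) and Cd40 (-0.31, adjusted p = 0.0622) were not. Irak1, not called without the offset, was called higher with it (0.15, adjusted p = 0.0319). The list then had 5 higher and 1 lower, against 14.2% and 16.3% of all tested genes.

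Among 13 kinase genes and their partners, 5 rose and 0 fell, against the same 20.3% and 19.4%, and the median log2 fold change was 0.11. Of the 5, 4 act at the level of the kinase TAK1 or beside it: Map3k7, which encodes TAK1, rose 1.13-fold, its binding partners Tab2 and Tab3 1.14-fold and 1.27-fold, and Map3k3 1.12-fold (edgeR, adjusted p = 0.00989, 0.00578, 0.00354 and 0.0116). With the length and GC offset 2 genes of the list were called higher (Tab2 and Map3k3) and 1 lower (Tank, -0.21, adjusted p = 0.0213), against 14.2% and 16.3% of all tested genes, while Map3k7 and Tab3 were not called. Of the IKK complex itself, the catalytic subunit genes stood at 9.56 ± 0.434 FPKM in KO and 8.53 ± 0.569 FPKM in WT for Chuk (adjusted p = 0.161), and at 4.004 ± 0.150 FPKM in KO and 3.94 ± 0.310 FPKM in WT for Ikbkb (adjusted p = 0.709). The scaffold gene Ikbkg rose 1.10-fold (adjusted p = 0.0437), a call that ended with the offset, where its log2 fold change was -0.07, and in 5 of the 6 fits without 1 library. Map3k14, which encodes NIK, stood at 4.74 ± 0.290 FPKM in KO and 4.26 ± 0.266 FPKM in WT (adjusted p = 0.284).

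Of 14 tested genes of the ubiquitin machinery, 1 rose and 0 fell, against 20.3% and 19.4% of all tested genes, and the median log2 fold change was -0.02. The one, Ube2d3, a ubiquitin-conjugating enzyme gene, was 1.13-fold higher (edgeR, adjusted p = 0.0137), but turned to -0.34 and was called lower with the length and GC offset. The offset took 19300 bp as the transcript length of Ube2d3, where the median of its length group was 7969 bp. The part of this length in the turn was not tested. Ube2n, which encodes another conjugating enzyme, was the other gene called lower with the offset (-0.16, adjusted p = 0.00889), and 0 were called higher. Of all tested genes, 16.3% were called lower and 14.2% higher with the offset. Ube2d3 has many processed pseudogenes, and reads may be split among them. Rbck1 and Sharpin, 2 genes of the linear ubiquitin ligase, and Ube2v1 did not pass (log2 fold changes -0.10, -0.07 and -0.08; adjusted p = 0.0995, 0.415 and 0.263).

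Of 16 other genes that restrain NF-kB, 4 rose and 1 fell, the rises near the 20.3% and the falls below the 19.4% of all tested genes, and the median log2 fold change was 0.06. Rnf11 and Itch, which work with Tnfaip3 in a ubiquitin-editing complex, rose. Rnf11 stood at 20.01, 19.4 and 19.7 FPKM in KO libraries, against 13.9, 13.4 and 13.1 FPKM in WT libraries (1.41-fold, edgeR, adjusted p = 8.45e-06), and Itch rose 1.21-fold (adjusted p = 0.00139). The deubiquitinase gene Cyld rose 1.33-fold (adjusted p = 5.83e-05). Tnip1, which encodes a Tnfaip3-binding protein, fell to 17.2 ± 0.304 FPKM in KO, against 19.5 ± 0.375 FPKM in WT (adjusted p = 0.00136). With the offset 3 genes were called higher and 3 lower, against 14.2% and 16.3% of all tested genes. Rnf11 and Tnip1 were still called, and so was Cyld, at a log2 fold change of 0.16 with the offset and 0.41 without it. Itch (0.08, adjusted p = 0.110) and the other rise, N4bp1 (0.07, adjusted p = 0.137), lost their calls, while Tnip2 was called higher and Tnip3 and Commd1 lower with the offset and not without it.

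Genes known as NF-kB targets fell more often than they rose. Of 25 tested, 2 rose and 12 fell, against 20.3% higher and 19.4% lower of all tested genes, and the list's median log2 fold change was -0.35. With the length and GC offset 2 rose and 10 fell, against 16.3% lower of all tested genes, and the median was -0.26. The 2 rises without the offset were Nlrp3 (log2 fold change 0.23, edgeR, adjusted p = 0.00895) and Cflar (0.26, adjusted p = 0.000774). With the offset Nlrp3 was still called higher (adjusted p = 0.00952), while Cflar was not (0.06, adjusted p = 0.163). Csf1 was called higher only with the offset (0.15, adjusted p = 0.0337). Ccl2, which encodes a monocyte attractant, stood at 11.8, 9.42 and 11.1 FPKM in KO libraries, against 16.4, 19.1 and 20.3 FPKM in WT libraries, 0.558-fold (edgeR, adjusted p = 0.000118). The survival genes Bcl2a1b and Bcl2l1 fell to 0.610-fold and 0.786-fold and the AP-1 gene Junb to 0.750-fold (adjusted p = 7.29e-05, 0.000221 and 7.04e-05). Bcl2a1b has close paralogs, among which reads may be split. The cytokine and chemokine genes Tnf, Ccl3, Ccl4, Ccl5 and Cxcl10 were among the falls, while Icam1, Vcam1, Birc3 and Cd83 had log2 fold changes from -0.02 to 0.03 and did not pass. Ccl3 lost its call with the offset (-0.11, adjusted p = 0.421), and the other 4 kept theirs. Ccl5 averaged 0.746 FPKM in KO and 1.64 FPKM in WT, so it passed the filter of 1 FPKM only through WT. A gene admitted in this way can appear only as a fall. Cxcl10 averaged 1.02 FPKM in KO, with KO libraries 1 and 2 below 1 FPKM. Of these targets, Ccl3, Ccl4 and Bcl2a1b are also made by neutrophils, whose marker sum was lower in KO. The part of neutrophil RNA in these falls was not tested. Of the 10 NF-kB genes, Nfkbia and Nfkbib fell and Rel rose in the same libraries, all without a call under the offset, and the other 7 did not pass.

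**Figure D4:**
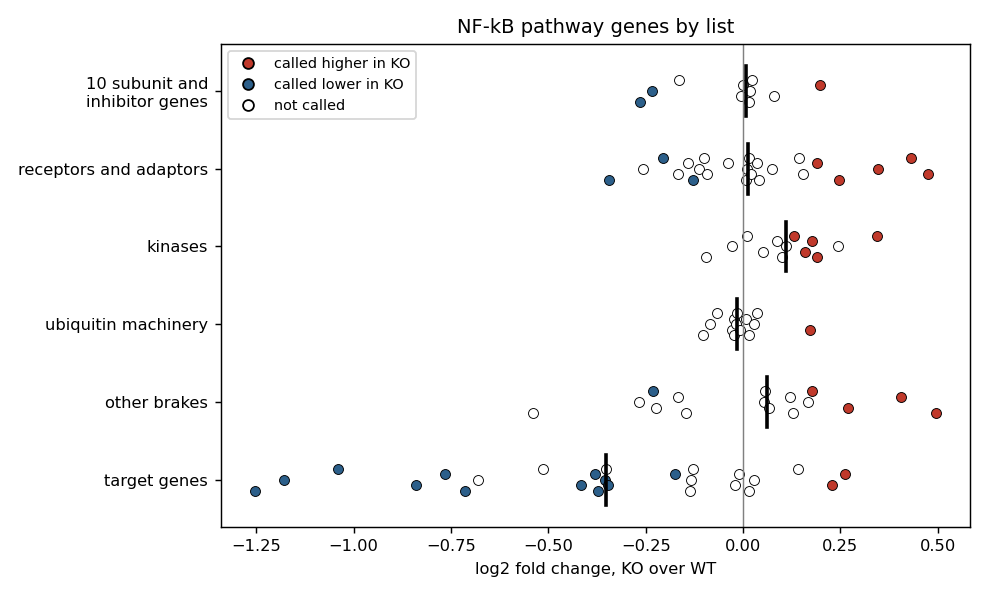
Log2 fold change, KO over WT, of the 10 genes and of the tested genes of 5 pathway lists (1 point per gene, red called higher, blue called lower, white not called; vertical bars are medians, and height within a row carries no meaning). Target genes reach furthest to the left, at a median of -0.35, while the 10 genes lie between -0.27 and 0.20.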

How the data were processed

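The deposited table gives FPKM and an estimated count for each gene and library, both made by the authors; the counts are whole numbers. The tools named, per the submitters' processing notes, are StringTie 1.3.4d, HISAT2 2.0.4 and cutadapt 1.9, without their roles. Genome build and strand use in counting were not given in the sources used here. Gene IDs matched GENCODE M21 (GRCm38) for 27382 genes. The value 4 was found 5769 times among the counts, against 3204 times for 3, so the counts are not plain fragment counts.

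KO was compared with WT by edgeR 4.0.16 (R 4.3.3), a quasi-likelihood test on the estimated counts with TMM scaling, two-sided, Benjamini-Hochberg adjusted over all 11636 genes that averaged 1 FPKM or more. Standard errors and 95% intervals were worked back from the F statistic and are approximate. The members and gene lists were chosen with earlier results of these data known. Named genes are the 10 members, Chuk, Ikbkb, Ikbkg and Map3k14, and the 4 genes of each list with the smallest p; others named were chosen after their values were seen. Length and GC content of the longest GENCODE transcript entered as loess trends (span 0.3) of each library, as an offset. The tests were tried on simulated counts. Alternatives were limma 3.58.1 on log2(FPKM + 1), with pseudocounts of 0.5 and 0.1 besides, DESeq2 1.42.0, other scalings and filters, counts divided by 4, a replicate block and leaving out each library. Pseudogenes were matched with minimap2 2.31. Plots used matplotlib 3.10.9.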

Additional observations from a re-analysis of the deposited data

How the results depend on the processing

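The counts of higher and lower genes stayed within 1.5 times of 2364 and 2253 under every alternative run, although the number of genes tested was 27458 without a filter (8.23% higher and 6.15% lower) and 6728 with a mean of at least 5 FPKM, against 11636 otherwise (11635 in DESeq2). Limma on log2(FPKM + 1) called 2770 higher and 1639 lower, a larger share of rises. Of the 10 NF-kB genes, 1 was called higher and 2 lower. With the length and GC offset, alone or with the replicate block, 0 were called higher and 0 lower. Limma at each pseudocount and the fit without a filter called 0 lower. Leaving out 1 library gave 0 to 1 higher and 0 to 2 lower, and none of the 3 calls held in all 6 such fits.

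Rel turned to -0.0564 with the offset and -0.056 with the block too, and ranged from 0.17 to 0.23 without 1 library. Nfkbia was -0.17, -0.18 and -0.18 in limma with pseudocounts of 1, 0.5 and 0.1 (adjusted p from 0.0628 to 0.0641), -0.21 without a filter (0.102), -0.0746 with the offset and -0.0735 with offset and block, and -0.28 to -0.18 without 1 library. Nfkbib was -0.19, -0.20 and -0.21 in limma (0.0505 to 0.0506), -0.24 without a filter (0.0991), -0.16 with the offset and -0.16 with offset and block, and -0.33 to -0.21 without 1 library.

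Genes near 0 changed sign with no call. Nfkb1 was 0.0451, 0.047 and 0.0487 in limma with pseudocounts of 1, 0.5 and 0.1 and 0.0164 without a filter, and -0.024 to 0.0257 without 1 library. Nfkb2 was 0.0021 in DESeq2, 0.0021 with median-ratio scaling, 0.0511, 0.053 and 0.0547 in limma, 0.0194 without a filter, 1.7e-05 with counts divided by 4, 0.0008 with the replicate block, 0.0171 with the offset and 0.0182 with offset and block, and -0.0601 to 0.0591 without 1 library. With library totals Rela was -0.0088, Nfkbiz -0.0051 and Tnfaip3 -0.0136. With the offset Nfkbiz was -0.0017 and Tnfaip3 -0.13, and Tnfaip3 was -0.12 with the block added. Without 1 library Rela ranged from -0.0536 to 0.075, Nfkbiz from -0.0237 to 0.0937 and Tnfaip3 from -0.0727 to 0.11. The stricter filter, a mean of at least 5 FPKM, left out Relb, Tnfaip3 and Nfkbiz.

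Among pathway genes, with the offset alone and with the block, Ikbkg turned to -0.0729 and -0.0721, Ube2d3 to -0.34 and -0.34, Ube2v1 to 0.0339 and 0.0323 and Sharpin to 0.0636 and 0.0644. Ikbkb was 0.0211, 0.0236 and 0.0261 in limma and -0.0893 to 0.0214 without 1 library. Why length and GC content move these values was not tested.

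The labels do not say whether the replicate numbers pair the libraries. Deviations of same-numbered KO and WT libraries correlated at 0.02, 0.19 and -0.04 across genes. Those of differently numbered libraries ran from -0.17 to 0.16, and with so few libraries these values cannot settle the question. With the replicate number as a block, 2407 genes were higher and 2294 lower, and Rel, Nfkbia and Nfkbib were still called (edgeR, adjusted p = 0.0256, 0.04 and 0.0259).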

Other observations

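Inducible NF-kB target genes that stayed below a mean of 1 FPKM were not tested and are given as levels. Ptgs2, which encodes the inducible cyclooxygenase, stood at 0.224, 0.289 and 0.141 FPKM in KO libraries, against 0.627, 0.652 and 0.642 FPKM in WT libraries. Il1b, the interleukin 1 beta gene, was listed at 0 in KO libraries 1 and 2 and stood at 0.0830 FPKM in KO library 3, against 0.311, 0.226 and 0.497 FPKM in WT libraries. Saa3, an acute phase gene, stood at 0.444, 0.413 and 0.380 FPKM in KO libraries, against 1.80, 0.760 and 1.80 FPKM in WT libraries. Traf1, an adaptor gene induced by NF-kB, stood at 0.343, 0.465 and 0.338 FPKM in KO libraries, against 0.701, 0.656 and 0.740 FPKM in WT libraries. These 4 were chosen after their values were seen. Of all 10 listed genes below this level, 8 had every KO library below every WT library and 0 the reverse. The 51.4% of tested genes with groups apart counts either direction and only genes at a mean of 1 FPKM or more. The share among genes below that level was not worked out, so the 8 have no matching background. Il1a, at 0.248, 0.109 and 0.447 FPKM in KO libraries and 0.271, 0.200 and 0.283 FPKM in WT libraries, overlapped between genotypes. Il1b is also made by neutrophils, whose markers were lower in KO, and the part of neutrophil RNA was not tested.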
